A study of Mus musculus with 23 samples.

Results

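Liver messenger RNA of mouse pups carried by a dam with metabolic syndrome (MetS) and nursed by another MetS dam was set against that of pups carried by a control dam and likewise nursed by a MetS dam. The first group is MetS-MetS (5 animals: MetS-MetS_39, MetS-MetS_109, MetS-MetS_110, MetS-MetS_154 and MetS-MetS_157) and the second is Ct-MetS (6 animals: Ct-MetS_24, Ct-MetS_50, Ct-MetS_63, Ct-MetS_65, Ct-MetS_145 and Ct-MetS_169). Together they are 11 of the 23 libraries of the series, chosen by the treatment in their labels, and by those labels they differ in the exposure before birth alone, since every pup in both groups drank the milk of a MetS foster dam. The other 12 animals were nursed by control dams, 6 of them after a MetS pregnancy (MetS-Ct) and 6 after a control pregnancy (Ct-Ct). They add to the estimate of the spread and give the same contrast under the other milk.

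All mice were C57Bl/6J. Per the labels, the mothers' generation ate a diet with 10% fat (control) or 45% fat (high fat), starting at 3 weeks of age and lasting 7 or 17 weeks, and was mated to control-fed males. Newborn litters were evened out to 5 pups and handed to a foster dam that had delivered that day. Livers were taken at postnatal day 21 and frozen, apart from that of MetS-Ct_97, which is labelled day 22. Polyadenylated RNA went into directional libraries, 1 per animal. The title of the series names juvenile fatty liver disease and a network of imprinted genes as its subject. Neither the litter, the sex, the weeks for which the dam ate the diet nor the hour of death is recorded animal by animal in the labels. Differences in these cannot be told apart from the exposure. P-values here measure the spread between these animals, and siblings within a group would make them too small.

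A mouse liver at weaning is leaving behind a milk diet rich in fat. During suckling it oxidises fatty acids and makes ketone bodies, while the cytochrome P450 enzymes that clear drugs and steroids, glycogen storage and fat synthesis increase towards weaning. Most of these genes also follow feeding and the time of day, through the circadian clock and through nuclear receptors that sense fatty acids, bile acids and foreign compounds.

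The libraries held 16876500 to 29184600 counts in MetS-MetS and 21388600 to 34527900 in Ct-MetS. Levels are given as CPM, counts scaled to a common library size after TMM adjustment, and MetS-MetS values always follow the order MetS-MetS_39, MetS-MetS_109, MetS-MetS_110, MetS-MetS_154 and MetS-MetS_157. Hepatocyte products were abundant throughout, with albumin (Alb) at 84728 to 123732 CPM, transthyretin (Ttr) at 3805 to 6409 CPM and apolipoprotein A1 (Apoa1) at 6498 to 12672 CPM over all 23 libraries. Across genes, any 2 libraries of 1 group had a Pearson r between 0.964 and 0.992. Each pair was farther apart than counting noise allows, and each library was taken as 1 replicate.

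MetS-MetS_110 stood apart. The summed level of 35 skeletal muscle markers was 2067 CPM there, against 26.1 to 36.4 CPM in the other MetS-MetS libraries and 25.6 to 45.2 CPM in Ct-MetS, and that of 34 squamous keratin markers was 1127 CPM, against 194 to 275 CPM and 156 to 272 CPM. None of the muscle markers was at 0 counts in MetS-MetS_110, against 13 to 17 of the 35 in the other MetS-MetS libraries and 3 to 18 in Ct-MetS. The muscle actin Acta1 reached 358 CPM in it, the titin gene Ttn 114 CPM, the myosin gene Myh8 205 CPM and the keratins Krt13 and Krt4 339 and 271 CPM. In the other 4 MetS-MetS libraries Krt13, Krt4 and Myh8 had at most 0.0547 CPM. These genes pass the count minimum through that library alone, so log2 fold changes of genes described in full are given a second time with it left out, marked "without 110".

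The Ct-MetS group fell into 2 parts on 2 measured properties of the libraries, which no label explains. The level of mt-Nd6, the one protein gene on the light strand of mitochondrial DNA, was 135, 121, 93.2, 100.1 and 85.1 CPM in MetS-MetS, 117 and 99.4 CPM in Ct-MetS_65 and Ct-MetS_145, and 160.3 to 239.9 CPM in the other 4 Ct-MetS libraries. Thinned to a common depth of 16876460 counts, 18043 to 18236 genes had a count in MetS-MetS apart from MetS-MetS_110 (18779), 18260 and 18381 in Ct-MetS_65 and Ct-MetS_145, and 18774 to 19194 in the other Ct-MetS libraries. No label gives this split, and among MetS-nursed animals its side of more mt-Nd6 holds Ct-MetS libraries alone, so it cannot be told apart from the exposure for those 4. Results are therefore also given, for the gene lists and wherever a log2 fold change moves by more than 1.5 times, for the 5 MetS-MetS libraries against Ct-MetS_65 and Ct-MetS_145 alone, a comparison added after the data had been seen.

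**Figure D1:**
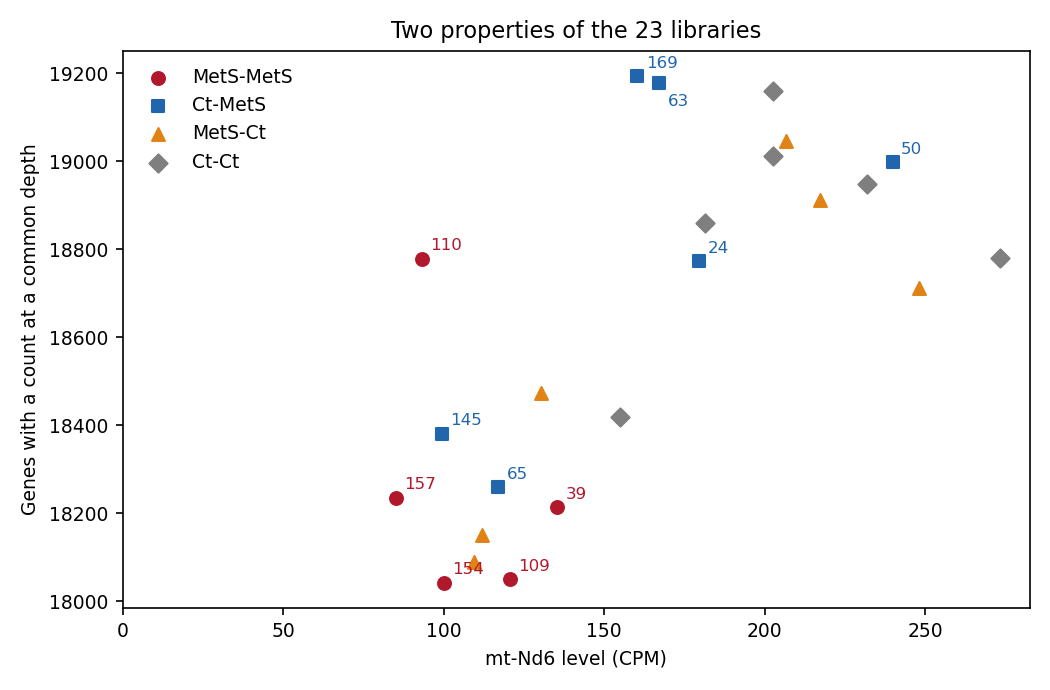
Level of mt-Nd6 (x axis, CPM) and number of genes with a count at a common depth (y axis) in each of the 23 libraries, coloured and shaped by group, with animal numbers for MetS-MetS and Ct-MetS. Ct-MetS_65 and Ct-MetS_145 lie among the MetS-MetS libraries, and the other 4 Ct-MetS libraries have both more mt-Nd6 and more genes than 4 of the 5 MetS-MetS libraries.

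No gene passed the test for an exposure before birth in MetS-nursed pups. Of 14466 genes averaging 10 counts or more per library, 0 (0%) had an adjusted p under 0.05 in edgeR's quasi-likelihood test, and the smallest adjusted p was 0.123. Without MetS-MetS_110 the smallest was 0.367. Below an unadjusted p of 0.05 lay 2255 genes (15.6%), of which 1239 (8.56% of all genes tested) were higher in MetS-MetS and 1016 (7.02%) lower. Without MetS-MetS_110 there were 1698 of 14428, with 853 higher (5.91%) and 845 lower (5.86%). The groups did not overlap for 152 genes that were higher in MetS-MetS (1.05%) and 103 that were lower (0.712%). The median log2 fold change of all genes was −0.0036. In bulk liver, fewer cells of a type and less RNA per cell cannot be told apart, in these and all later results.

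Which library was left out decided whether edgeR called any gene. Without MetS-MetS_39 it called 31 genes, 30 higher and 1 lower (Plekha1), of which 16 fall under the count minimum once MetS-MetS_110 is also left out. The rest included Arid5b, Sipa1l2, Trib1, Cyp1a2 and Dgat2. Without MetS-MetS_154 it called 1 gene, a predicted one, and without any 1 of the other 21 libraries none. DESeq2 called 37 genes (0.256%), 19 higher and 18 lower, of which 29 have a gene name, but 3 without MetS-MetS_110 (Herpud1, Cyp1a2 and Hspd1, the last chosen after its values were seen). In that run DESeq2 gave most of the 37, Arid5b and Agmo among them, no adjusted p, so for these the fall to 3 is no failed test. The uncalled genes of the 37 that had one stood at 0.0519 to 0.0638. Limma-voom called 0. Against Ct-MetS_65 and Ct-MetS_145 alone, 401 of 14382 genes (2.79%) lay below an unadjusted p of 0.05. With the log2 level of mt-Nd6 as a covariate over all libraries, also added after the data had been seen, there were 959 (6.63%). Counts of list members below are to be read beside the shares of all genes at that p. These are 8.56% higher and 7.02% lower, or 5.91% and 5.86% without MetS-MetS_110. Against Ct-MetS_65 and Ct-MetS_145 the share is 2.79% for both directions together. The values below are log2 fold changes of MetS-MetS over Ct-MetS, also where a gene is said to have come to a value or is followed by one in brackets, and none passed edgeR's test on all libraries.

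Among genes averaging 50 counts or more per library, those of smallest p on the higher side included a chromatin regulator, a pseudokinase and a chaperone. Arid5b, a DNA-binding chromatin regulator, stood at 56.3, 60.3, 77.5, 68.03 and 83.9 CPM in MetS-MetS, against 30.8 to 53.7 CPM (median 42.5) in Ct-MetS (log2 fold change 0.72 ± 0.15 SE, adjusted p = 0.123, 0.68 without 110). Every MetS-MetS library lay above every Ct-MetS library, and the value was 0.91 against Ct-MetS_65 and Ct-MetS_145. Sipa1l2, a GTPase activator of the Rap family, had 7.48, 15.8, 17.7, 12.02 and 11.6 CPM, against 6.09 to 8.11 CPM (median 7.498) (log2 fold change 0.83 ± 0.18 SE, adjusted p = 0.123, 0.69 without 110). MetS-MetS_39 lay inside the Ct-MetS range for it, and the other 4 above. Agmo, the monooxygenase that cleaves ether lipids, ran from 101 to 110.4 CPM in MetS-MetS, against 70.5 to 88.9 CPM (median 77.5), with no overlap (log2 fold change 0.42 ± 0.096 SE, adjusted p = 0.125, 0.43 without 110, 0.25 against Ct-MetS_65 and Ct-MetS_145).

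Trib1, a pseudokinase that directs the degradation of C/EBP transcription factors, stood at 34.3, 78.3, 66.7, 82.8 and 83.5 CPM in MetS-MetS, against 22.1 to 41.3 CPM (median 36.6) in Ct-MetS (log2 fold change 0.99 ± 0.23 SE, adjusted p = 0.125, 1.004 without 110). MetS-MetS_39 lay within the Ct-MetS range and the other 4 libraries above it. Dnaja1, a co-chaperone of cytosolic Hsp70, had 137 to 187 CPM, against 93.2 to 131 CPM (median 103), without overlap (log2 fold change 0.56 ± 0.13 SE, adjusted p = 0.125, 0.55 without 110). Gemin2, of the complex that assembles spliceosomal particles, and Dym, a Golgi protein, came to 0.56 ± 0.14 and 0.33 ± 0.082 SE (adjusted p = 0.125 and 0.137). Without MetS-MetS_110 Agmo, Trib1, Dnaja1, Gemin2 and Dym had log2 fold changes of 0.35 (Dym) to 1.004 (Trib1).

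The lower genes of smallest p included a receptor, cytoskeletal genes and a Notch target. Adra2b, the alpha-2B adrenergic receptor, had 4.26, 4.22, 4.27, 6.43 and 4.43 CPM in MetS-MetS, against 6.10 to 14.04 CPM (median 8.70) in Ct-MetS (log2 fold change −0.91 ± 0.20 SE, adjusted p = 0.123, −0.88 without 110, −0.58 against Ct-MetS_65 and Ct-MetS_145). The groups overlapped in MetS-MetS_154 alone. Myh10, the heavy chain of non-muscle myosin IIB, had 19.5, 20.4, 20.9, 23.4 and 24.8 CPM, against 26.04 to 35.8 CPM (median 31.8), without overlap (log2 fold change −0.51 ± 0.11 SE, adjusted p = 0.123, −0.50 without 110, −0.34 against Ct-MetS_65 and Ct-MetS_145). Gsdme, a pore-forming gasdermin, also separated the groups, at 1.61 to 2.53 CPM in MetS-MetS and 2.83 to 5.30 CPM (median 4.26) in Ct-MetS (log2 fold change −0.99 ± 0.22 SE, adjusted p = 0.123, −0.98 without 110), with −0.52 against Ct-MetS_65 and Ct-MetS_145. Plekha1, a phosphoinositide-binding adaptor, came to −0.50 ± 0.11 SE, the formin Fmnl3 to −0.45 ± 0.10, the chromatin factor Brd8 to −0.30 ± 0.069 and Heyl, a repressor induced by Notch, to −0.80 ± 0.19 (adjusted p = 0.123 to 0.125). Brd8 did not overlap between the groups. Without MetS-MetS_110, the adaptor gene Nck2 (−0.47), Mxra7 (−0.44) and Fkbp10 (−0.65), a chaperone of collagen, joined the lower genes of smallest p. With that library their log2 fold changes were −0.41, −0.35 and −0.41.

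**Figure D2:**
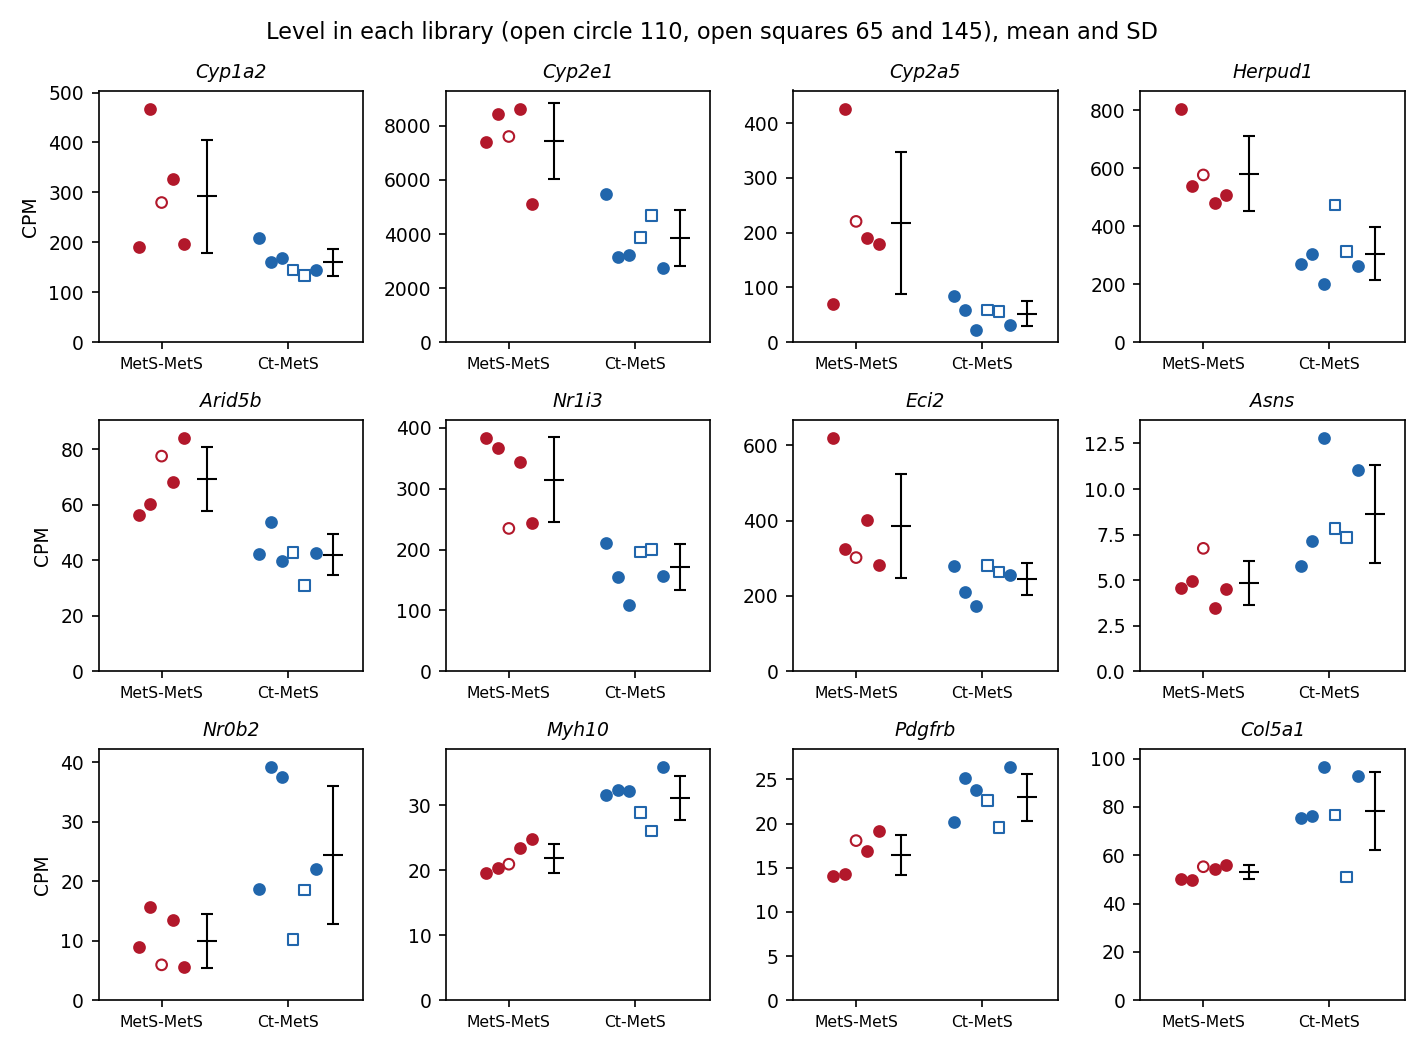
Level of 12 genes (y axes, CPM, from 0) in each MetS-MetS and Ct-MetS library, with the group mean and SD at the right of the points. Open circles are MetS-MetS_110 and open squares Ct-MetS_65 and Ct-MetS_145. The groups do not overlap for Herpud1, Arid5b, Nr1i3, Eci2, Myh10 and Pdgfrb, and MetS-MetS_110 lies among the other MetS-MetS libraries or nearer to Ct-MetS for each of the 12.

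The genes of drug metabolism lay higher in MetS-MetS as a group. Of 43 tested, 41 had a positive log2 fold change, 19 of 43 (44.2%) were higher at an unadjusted p under 0.05 against 8.56% of all genes, and none was lower. Their median was 0.50, 0.50 without MetS-MetS_110 and 0.41 against Ct-MetS_65 and Ct-MetS_145, where 5 were higher and 1 lower at that p. With mt-Nd6 as a covariate over all libraries the median was 0.45. In that fit 11 were higher and 0 lower at that p, against 6.63% of all genes for both directions together. Cyp2e1, which oxidises ethanol and fatty acids, had 7402, 8433, 7607, 8619 and 5101 CPM in MetS-MetS, against 2738 to 5469 CPM (median 3557) in Ct-MetS (log2 fold change 0.94 ± 0.24 SE, adjusted p = 0.153, 0.94 without 110). The lowest MetS-MetS library was just under the highest Ct-MetS one. Cyp1a2, a P450 of the pericentral zone, had 191, 467, 279.7, 327 and 197 CPM, against 133 to 208 CPM (median 153) (log2 fold change 0.87 ± 0.19 SE, adjusted p = 0.123, 0.89 without 110). MetS-MetS_39 and MetS-MetS_157 lay within the Ct-MetS range, while DESeq2 called the gene with and without MetS-MetS_110.

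Cyp2a5, which oxidises coumarin and nicotine, had 69.5, 426, 221, 190.1 and 179 CPM in MetS-MetS, against 21.9 to 84.8 CPM (median 57.3) in Ct-MetS (log2 fold change 2.06 ± 0.55 SE, adjusted p = 0.168, 2.05 without 110). MetS-MetS_109 was highest, and MetS-MetS_39 lay inside the range of the other group. Cyp3a11, the main inducible P450 of the mouse liver, had 2849.7, 983, 2104, 1962 and 1524 CPM, against 742 to 1355 CPM (median 886) (log2 fold change 0.98 ± 0.28 SE, adjusted p = 0.182, 0.93 without 110). Here MetS-MetS_39 was highest and MetS-MetS_109 lay within the Ct-MetS range, so that the order of the animals differed from one P450 to the next. Cyp2a5 with Cyp2a4, and Cyp3a11 with its neighbours, are near-identical copies whose reads may have been shared out between them. Of the nuclear receptors that induce such genes, Nr1i3 (the constitutive androstane receptor) had 383, 368, 235, 344 and 244 CPM, against 109.1 to 209.95 CPM (median 176), without overlap (log2 fold change 0.88 ± 0.29 SE, adjusted p = 0.202, 0.97 without 110). Nr1i2 (the pregnane X receptor) had 179, 112, 126, 113 and 137 CPM, against 65.7 to 122 CPM (median 89.9), with overlap (log2 fold change 0.50 ± 0.22 SE, adjusted p = 0.277, 0.52 without 110).

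**Figure D3:**
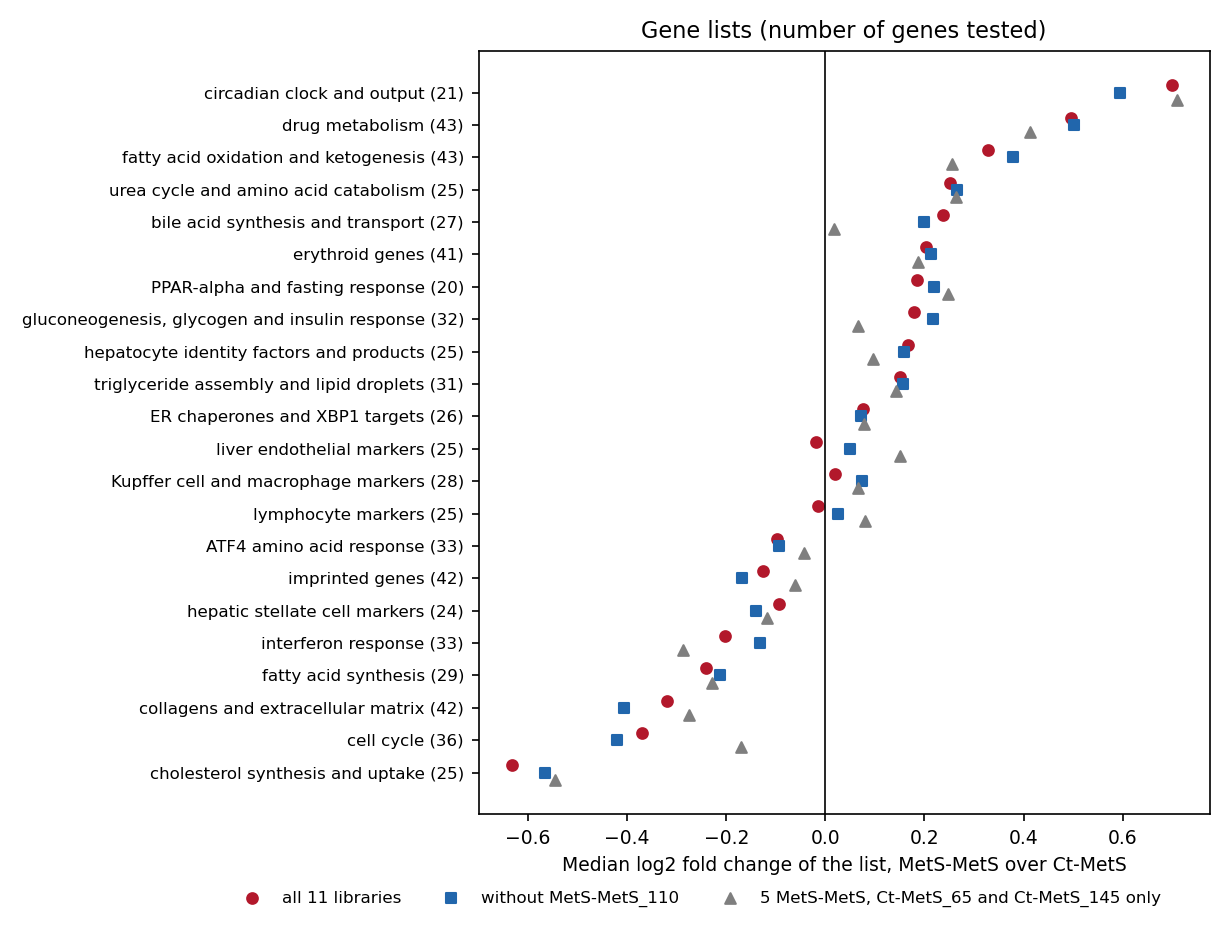
Median log2 fold change of MetS-MetS over Ct-MetS (x axis) for 22 gene lists (y axis, with the number of genes tested), in all 11 libraries (circles), without MetS-MetS_110 (squares) and against Ct-MetS_65 and Ct-MetS_145 alone (triangles). Clock, drug metabolism and fatty acid oxidation lists lie on the right under all 3 settings, and cholesterol, cell cycle and matrix lists on the left.

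Genes that burn fat lay slightly higher in MetS-MetS. All 43 genes of fatty acid oxidation and ketogenesis had a positive log2 fold change. At an unadjusted p under 0.05, 21 of 43 (48.8%) were higher, against 8.56% of all genes. The median was 0.33, 0.38 without MetS-MetS_110 and 0.25 against Ct-MetS_65 and Ct-MetS_145, where 1 of the 43 had an unadjusted p under 0.05. With mt-Nd6 as a covariate over all libraries the median was 0.24. In that fit 5 of the 43 were higher and 0 lower at that p, against 6.63% of all genes for both directions together. Eci2, an isomerase for unsaturated fatty acids, had 619, 324, 302, 401 and 283 CPM in MetS-MetS, against 174 to 281 CPM (median 259) in Ct-MetS, without overlap (log2 fold change 0.66 ± 0.23 SE, adjusted p = 0.214, 0.74 without 110). Acad11, an acyl-CoA dehydrogenase, had 472, 358, 356, 409.96 and 373 CPM, against 216 to 357 CPM (median 306) (log2 fold change 0.42 ± 0.14 SE, adjusted p = 0.207, 0.46 without 110). Its lowest MetS-MetS value lay just below the highest Ct-MetS one. Decr1, needed for polyunsaturated fatty acids, came to 0.42 ± 0.14 SE and the fatty aldehyde dehydrogenase Aldh3a2 to 0.53 ± 0.20 (adjusted p = 0.21 and 0.229).

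Cyp4a10, an omega-hydroxylase induced by PPAR-alpha, had 2639.6, 119.5, 100.3, 556 and 239 CPM in MetS-MetS, against 80.4 to 385 CPM (median 215) in Ct-MetS (log2 fold change 1.74 ± 0.79 SE, adjusted p = 0.294, 2.02 without 110). MetS-MetS_39 was far the highest, and it was also highest for Eci2 and Acad11. Without it the value was 0.21. MetS-MetS_109 and MetS-MetS_110 were below the Ct-MetS median, and Cyp4a10 shares sequence with Cyp4a31 and Cyp4a32. Cpt1a, the entry step of mitochondrial oxidation, and Ppara itself came to 0.26 ± 0.19 and 0.13 ± 0.13 SE (adjusted p = 0.505 and 0.654). Ucp2, a mitochondrial carrier, came to 0.15 ± 0.11 SE. Of 20 genes of the PPAR-alpha and fasting response 2 were higher and 1 lower at an unadjusted p under 0.05, with a median of 0.18. These shares, 10% and 5%, compare with 8.56% and 7.02% of all genes. Without MetS-MetS_110 the counts were 4 and 0, and against Ct-MetS_65 and Ct-MetS_145 0 and 0. Set against Ct-MetS_65 and Ct-MetS_145 alone, the values were 0.26 (Ppara) and 0.27 (Ucp2).

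In triglyceride assembly and lipid droplets, 5 of 31 genes were higher and 1 lower at an unadjusted p under 0.05 (16.1% and 3.23%, against 8.56% and 7.02% of all genes), with a median of 0.15. The counts were 7 and 1 without MetS-MetS_110 and 1 and 1 against Ct-MetS_65 and Ct-MetS_145. Dgat2, which adds the last fatty acid to triglyceride, had 588, 1164, 1203, 876 and 1047 CPM in MetS-MetS, against 524 to 862 CPM (median 672) in Ct-MetS (log2 fold change 0.53 ± 0.15 SE, adjusted p = 0.182, 0.45 without 110, 0.34 against Ct-MetS_65 and Ct-MetS_145). MetS-MetS_109, MetS-MetS_110, MetS-MetS_154 and MetS-MetS_157 lay above the Ct-MetS range, and MetS-MetS_39 was near its lower end. Gpat2, an acyltransferase, had 2.46 to 3.59 CPM, against 3.49 to 5.76 CPM (median 4.45) (log2 fold change −0.68 ± 0.20 SE, adjusted p = 0.182, −0.78 without 110), and the phospholipase Pnpla8 came to 0.38 ± 0.12 SE. For Pnpla8 the value against Ct-MetS_65 and Ct-MetS_145 was 0.18.

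Amino acid breakdown and glycogen genes showed the same side with smaller shares. Of 25 genes of the urea cycle and amino acid catabolism 7 were higher at an unadjusted p under 0.05 (28%, against 8.56% of all genes) and none lower. The median was 0.25, and 1 gene was higher at that p against Ct-MetS_65 and Ct-MetS_145. Tdo2, which opens the tryptophan ring, had 1853, 1179, 1056, 913 and 1209.5 CPM in MetS-MetS, against 489 to 1119.8 CPM (median 666) in Ct-MetS (log2 fold change 0.80 ± 0.24 SE, adjusted p = 0.183, 0.85 without 110). Prodh, the first enzyme of proline breakdown, had 200.3, 310.3, 208, 190.4 and 209 CPM, against 59.5 to 216 CPM (median 131) (log2 fold change 0.71 ± 0.22 SE, adjusted p = 0.184, 0.73 without 110, 0.47 against Ct-MetS_65 and Ct-MetS_145). The groups overlapped for both genes. Fah, the last step of tyrosine breakdown, separated the groups at 688 to 764 CPM in MetS-MetS and 512 to 660.04 CPM (median 608) in Ct-MetS (log2 fold change 0.25 ± 0.086 SE, adjusted p = 0.21, 0.27 without 110, 0.12 against Ct-MetS_65 and Ct-MetS_145). Bckdha, of branched-chain amino acid breakdown, came to 0.25 ± 0.099 SE.

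Of 32 genes that make glucose, store glycogen or answer insulin, 6 (18.8%) were higher and none lower at an unadjusted p under 0.05, and 3 higher without MetS-MetS_110. Gys2, the liver glycogen synthase, had 133, 403, 352, 247 and 419 CPM in MetS-MetS, against 112 to 302 CPM (median 197) in Ct-MetS (log2 fold change 0.68 ± 0.24 SE, adjusted p = 0.222, 0.63 without 110). Slc2a2, the liver glucose transporter, had 249, 634, 613, 517 and 695 CPM, against 243 to 556 CPM (median 349.8) (log2 fold change 0.56 ± 0.21 SE, adjusted p = 0.232, 0.51 without 110, 0.26 against Ct-MetS_65 and Ct-MetS_145), and Ugp2, which makes UDP-glucose, had 225, 523, 543, 464 and 556 CPM, against 250.1 to 497 CPM (median 324) (log2 fold change 0.48 ± 0.20 SE, adjusted p = 0.253, 0.41 without 110, 0.14 against Ct-MetS_65 and Ct-MetS_145). For these 3 genes MetS-MetS_39 was the lowest of its group and Ct-MetS_65 or Ct-MetS_169 the highest of the other. The list median was 0.18, and 0.067 with 1 gene higher against Ct-MetS_65 and Ct-MetS_145.

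The circadian clock list had the highest median of the lists that MetS-MetS_110 did not carry, at 0.70 over 21 genes, 0.59 without that library and 0.71 against Ct-MetS_65 and Ct-MetS_145. At an unadjusted p under 0.05, 7 genes were higher (33.3%, against 8.56% of all genes) and none lower, and against that pair 0 were either. Ciart, a repressor of the clock's activators, had 4.03, 35.05, 25.4, 4.41 and 26.03 CPM in MetS-MetS, against 0.396 to 10.8 CPM (median 1.05) in Ct-MetS (log2 fold change 2.86 ± 0.92 SE, adjusted p = 0.199, 2.73 without 110). Per2, a core repressor of the clock, had 12.6, 53.2, 48.996, 16.5 and 56.6 CPM, against 9.18 to 24.1 CPM (median 11.9) (log2 fold change 1.45 ± 0.40 SE, adjusted p = 0.181, 1.34 without 110). The animals MetS-MetS_109, MetS-MetS_110 and MetS-MetS_157 were high for both, and MetS-MetS_39 and MetS-MetS_154 lay near Ct-MetS. Clock genes follow the time of day, and the hour of death is not recorded per animal. For these genes it cannot be told apart from the exposure.

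Usp2, a deubiquitinase driven by the clock, had 30.6, 73.2, 65.2, 9.03 and 61.4 CPM in MetS-MetS, against 2.16 to 14.8 CPM (median 5.70) in Ct-MetS (log2 fold change 2.80 ± 0.82 SE, adjusted p = 0.182, 2.67 without 110), and Wee1, a cell cycle kinase under clock control, had 10.2, 29.97, 28.6, 14.7 and 24.2 CPM, against 7.23 to 16.7 CPM (median 11.9) (log2 fold change 0.84 ± 0.27 SE, adjusted p = 0.196, 0.72 without 110). The same 3 animals led both genes. Within Ct-MetS, Ct-MetS_65 was highest for Ciart (10.8 CPM), Per2 (24.1 CPM) and Usp2 (14.8 CPM). Against Ct-MetS_65 and Ct-MetS_145 the log2 fold change of Ciart was 1.69.

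The promoter of Ciart, the clock gene of largest fold change, is shown because CACGTG, the E-box that the clock's activators bind, occurs 3 times in the 250 bases before its start. The sequence is RefSeq's (GRCm38.p6, chr3:95882229-95882478, minus strand, 5′ to 3′), with CACGTG in capitals, 116, 58 and 44 bases before the start.
Ciart: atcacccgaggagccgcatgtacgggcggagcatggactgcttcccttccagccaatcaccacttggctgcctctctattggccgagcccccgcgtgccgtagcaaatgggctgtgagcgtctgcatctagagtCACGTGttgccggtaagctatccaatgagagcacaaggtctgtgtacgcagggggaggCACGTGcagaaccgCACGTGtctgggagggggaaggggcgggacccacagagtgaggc
CACGTG is its own reverse complement, so a search of either strand finds the same places. It occurred in 1978 of 32851 promoters of this length (6.02%) and in 5 of the 18 clock genes with a promoter in the table (Bhlhe41, Ciart, Cry1, Per1 and Tef). The fold changes above were measured on the transcripts, and no binding was measured.

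Errfi1, a feedback inhibitor of the epidermal growth factor receptor that is induced early after stimulation, took 1 of 2 levels in these 11 libraries. It had 1982, 1674, 1872, 1865 and 1736 CPM in MetS-MetS, 1607 and 1859 CPM in Ct-MetS_50 and Ct-MetS_65, and 217 to 357 CPM in the other 4 Ct-MetS libraries (log2 fold change 1.24 ± 0.57 SE, adjusted p = 0.303, 1.23 without 110, 0.76 against Ct-MetS_65 and Ct-MetS_145). None of the 11 lay between, whereas of the control-nursed animals Ct-Ct_129, for one, had 803 CPM. Fkbp5, a chaperone induced by glucocorticoids, had 359, 179.5, 212, 112 and 231 CPM, against 80.7 to 249.9 CPM (median 105) (log2 fold change 0.82 ± 0.35 SE, adjusted p = 0.264, 0.83 without 110, 0.31 against Ct-MetS_65 and Ct-MetS_145), with Ct-MetS_65 again the highest of its group at 249.9 CPM. Cish, which is induced through STAT5 and restrains it, had 12.8, 49.5, 50.4, 19.4 and 33.4 CPM, against 9.79 to 26.6 CPM (median 13.05) (log2 fold change 1.16 ± 0.36 SE, adjusted p = 0.192, 0.96 without 110). Of 29 glucocorticoid and immediate early genes 3 (10.3%) were higher and 0 lower at an unadjusted p under 0.05, a share near the 8.56% of all genes. Without MetS-MetS_110 1 was higher, and against Ct-MetS_65 and Ct-MetS_145 none.

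**Figure D4:**
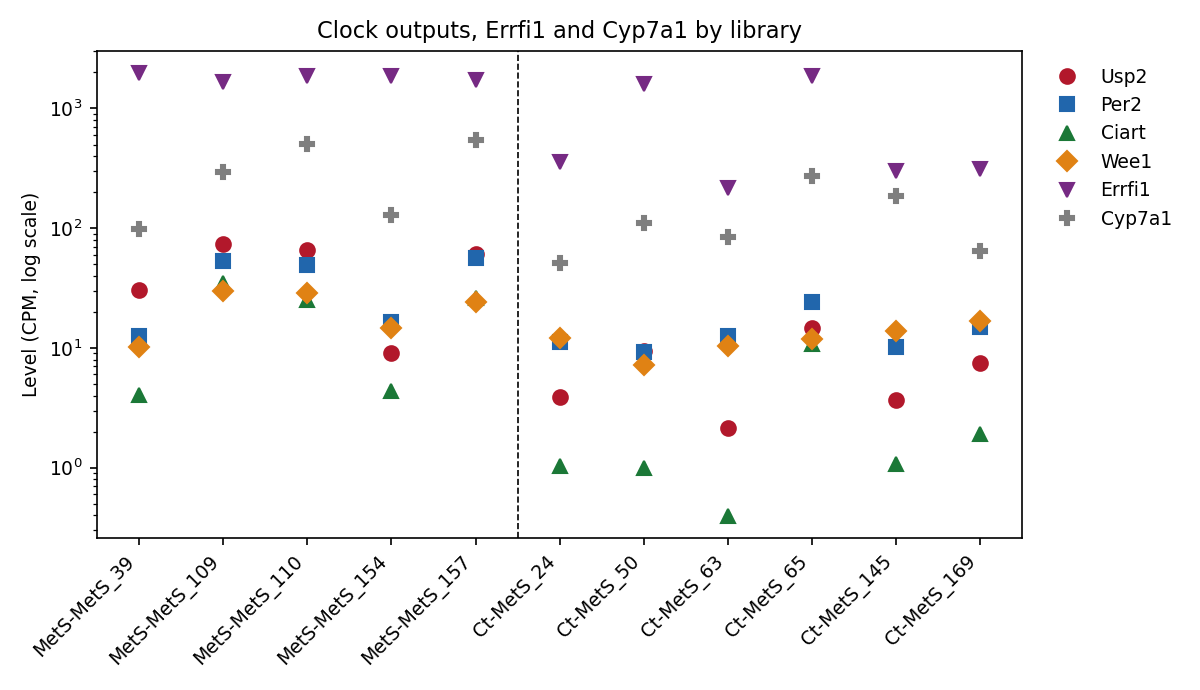
Level of 4 clock genes (Usp2, Per2, Ciart and Wee1), Errfi1 and Cyp7a1 (y axis, CPM, log scale) in each library, MetS-MetS to the left of the dashed line and Ct-MetS to the right. MetS-MetS_109, MetS-MetS_110 and MetS-MetS_157 have the most of Per2, Ciart, Wee1 and Cyp7a1, while Errfi1 is at 1607 CPM or more in all 5 MetS-MetS libraries, Ct-MetS_50 and Ct-MetS_65.

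Genes of the amino acid response lay on both sides. Of 33 targets of ATF4, the factor that cells make when amino acids are short, 2 were higher and 4 lower at an unadjusted p under 0.05 (6.06% and 12.1%), with a median of −0.097. Without MetS-MetS_110 the counts were 1 and 4, and against Ct-MetS_65 and Ct-MetS_145 0 and 1. Asns, the asparagine synthetase, had 4.57, 4.93, 6.74, 3.47 and 4.54 CPM in MetS-MetS, against 5.75 to 12.8 CPM (median 7.58) in Ct-MetS (log2 fold change −0.84 ± 0.19 SE, adjusted p = 0.123, −0.99 without 110). MetS-MetS_110 alone lay within the Ct-MetS range. Psph, the last step of serine synthesis, lay on the same side (log2 fold change −0.59 ± 0.20 SE, adjusted p = 0.21, −0.63 without 110), whereas Chac1, which degrades glutathione and is a classic ATF4 target, lay on the other side (log2 fold change 0.73 ± 0.29 SE, adjusted p = 0.244, 0.60 without 110) and stood at 0.17 against Ct-MetS_65 and Ct-MetS_145.

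The promoter of Asns, the ATF4 target of smallest p, is printed with the sequence TGATGAAAC in capitals, the amino acid response element known from this gene. It lies 23 bases before the start in RefSeq's sequence (GRCm38.p6, chr6:7693210-7693459, minus strand, 5′ to 3′).
Asns: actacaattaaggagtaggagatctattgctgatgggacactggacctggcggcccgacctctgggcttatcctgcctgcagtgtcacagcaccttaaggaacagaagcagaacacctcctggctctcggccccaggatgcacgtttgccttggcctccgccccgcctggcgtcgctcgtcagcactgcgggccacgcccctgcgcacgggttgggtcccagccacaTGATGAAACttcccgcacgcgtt
On either strand, TGATGAAAC occurred in 70 of 32851 promoters (0.213%) and, of 31 genes in the list with a promoter, in Asns alone.

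Of 26 chaperones and XBP1 targets of the endoplasmic reticulum 2 were higher and 3 lower at an unadjusted p under 0.05 (7.69% and 11.5%, median 0.077), and 0 and 0 against Ct-MetS_65 and Ct-MetS_145. Herpud1, which helps remove misfolded proteins from the membrane of the reticulum, had 804, 537, 577, 479 and 509 CPM in MetS-MetS, against 201 to 473 CPM (median 288) in Ct-MetS (log2 fold change 0.93 ± 0.22 SE, adjusted p = 0.125, 0.94 without 110). The highest Ct-MetS library, Ct-MetS_65, lay just below the lowest MetS-MetS one, and DESeq2 called the gene with and without MetS-MetS_110. Its log2 fold change was 0.56 against Ct-MetS_65 and Ct-MetS_145. Dnajb9, a co-chaperone of the reticulum, came to 0.72 ± 0.26 SE (adjusted p = 0.222). On the other side were Sdf2l1, with 22.2, 12.47, 17.8, 26.1 and 14.6 CPM, against 18.6 to 52.4 CPM (median 29.8) (log2 fold change −0.77 ± 0.29 SE, adjusted p = 0.235, −0.75 without 110), and the disulfide isomerase Pdia6 (log2 fold change −0.37 ± 0.15 SE, adjusted p = 0.237, −0.40 without 110). Ct-MetS_63 was the highest library of both.

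Genes of the extracellular matrix lay lower in MetS-MetS. Of 42 collagens and matrix genes, 34 had a negative log2 fold change, 12 of 42 (28.6%) were lower at an unadjusted p under 0.05 against 7.02% of all genes, and none was higher. Without MetS-MetS_110 there were 19 of 42, and the median moved to −0.41 compared with −0.32 with it. Against Ct-MetS_65 and Ct-MetS_145 the median was −0.27, with 3 lower. Col5a1, which seeds collagen fibrils, had 50.2, 49.6, 55.2, 54.2 and 56.1 CPM in MetS-MetS, against 50.97 to 96.5 CPM (median 76.5) in Ct-MetS (log2 fold change −0.56 ± 0.18 SE, adjusted p = 0.199, −0.57 without 110, −0.27 against Ct-MetS_65 and Ct-MetS_145). The MetS-MetS libraries lay within a narrow span, and Ct-MetS_145 was the single library of the other group among them. Loxl2, which cross-links collagen, came to −0.45 ± 0.16 SE, the laminin chain Lamb1 to −0.38 ± 0.14 and Pcolce, which speeds the trimming of procollagen, to −0.37 ± 0.13 (adjusted p = 0.214 to 0.222).

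The main fibril collagens overlapped between the groups. Col1a1 had 44.04, 43.7, 76.6, 38.996 and 69.8 CPM in MetS-MetS, against 60.4 to 127 CPM (median 87.04) in Ct-MetS (log2 fold change −0.75 ± 0.37 SE, adjusted p = 0.341, −0.90 without 110), and Col3a1 had 329.7, 287, 512, 329 and 422 CPM, against 395 to 571 CPM (median 463) (log2 fold change −0.29 ± 0.20 SE, adjusted p = 0.474, −0.43 without 110). MetS-MetS_110 was the highest MetS-MetS library for both. Tgfb1, the growth factor that drives fibrosis, came to −0.27 ± 0.11 SE and Smoc2, a secreted matrix protein, to −0.42 ± 0.22 (adjusted p = 0.251 and 0.349). Of 24 markers of stellate cells, which make much of the liver's collagen, 9 had a positive and 15 a negative log2 fold change (median −0.093). At an unadjusted p under 0.05, 1 was higher and 4 lower (4.17% and 16.7%, against 8.56% and 7.02% of all genes). Without MetS-MetS_110 there were 0 higher and 7 lower, and against Ct-MetS_65 and Ct-MetS_145 0 and 0. Their summed level was 1265 to 1549 CPM in MetS-MetS and 1359 to 1607 CPM in Ct-MetS. Pdgfrb, the receptor of these cells for platelet-derived growth factor, had 14.02, 14.3, 18.1, 16.9 and 19.1 CPM, against 19.6 to 26.4 CPM (median 23.2), without overlap (log2 fold change −0.48 ± 0.14 SE, adjusted p = 0.182, −0.51 without 110). For Tgfb1 the value against Ct-MetS_65 and Ct-MetS_145 was −0.073.

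Ngfr, the low-affinity nerve growth factor receptor, had 7.17, 5.98, 5.51, 8.56 and 6.998 CPM in MetS-MetS, against 6.74 to 14.9 CPM (median 13.1) in Ct-MetS (log2 fold change −0.79 ± 0.24 SE, adjusted p = 0.189, −0.73 without 110), but −0.16 against Ct-MetS_65 and Ct-MetS_145. Des, the muscle and stellate cell filament desmin, turned with 1 library, with 6.59, 4.27, 63.1, 4.69 and 5.03 CPM in MetS-MetS, against 6.61 to 7.97 CPM (median 7.21) in Ct-MetS (log2 fold change 1.19 ± 0.51 SE, adjusted p = 0.27, −0.49 without 110). Without MetS-MetS_110 the 4 remaining libraries lay below the Ct-MetS range. With mt-Nd6 as a covariate 3 of the 42 matrix genes and 2 of the 24 stellate markers were lower at an unadjusted p under 0.05.

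Of 27 genes of bile acid synthesis and transport 5 were higher (18.5%) and 2 lower (7.41%) at an unadjusted p under 0.05. Nr0b2 (SHP), the receptor-like repressor that bile acids induce to shut off their own synthesis, had 8.96, 15.7, 5.94, 13.5 and 5.52 CPM in MetS-MetS, against 10.2 to 39.2 CPM (median 20.4) in Ct-MetS (log2 fold change −1.29 ± 0.36 SE, adjusted p = 0.181, −1.16 without 110). DESeq2 called it (adjusted p = 0.0413), though against Ct-MetS_65, which was as low as the MetS-MetS libraries, and Ct-MetS_145 the value was −0.54. Cyp7a1, the rate-limiting enzyme of that synthesis, had 98.9, 297, 507, 128.6 and 549 CPM, against 51.01 to 271 CPM (median 97.2) (log2 fold change 1.31 ± 0.71 SE, adjusted p = 0.377, 1.07 without 110, 0.46 against Ct-MetS_65 and Ct-MetS_145). Its highest libraries were those that led the clock genes. Slco1b2, an uptake carrier, had 1329.6, 1784, 1739.6, 1892 and 1445 CPM, against 712 to 1467 CPM (median 1059) (log2 fold change 0.62 ± 0.20 SE, adjusted p = 0.192, 0.60 without 110, 0.27 against Ct-MetS_65 and Ct-MetS_145). Abcc2, an export pump, came to 0.37 ± 0.13 SE and Slc27a5, which conjugates bile acids to coenzyme A, to 0.30 ± 0.10. The list median was 0.24, and 0.017 against Ct-MetS_65 and Ct-MetS_145, where 2 were higher and 0 lower.

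Cholesterol synthesis and uptake had the lowest median of the lists plotted, −0.63 over 25 genes, of which 24 had a negative log2 fold change, and yet no gene had an unadjusted p under 0.05. Hmgcs1, an early step, had 169.8, 281, 156, 439.7 and 153.5 CPM in MetS-MetS, against 134 to 787 CPM (median 669) in Ct-MetS (log2 fold change −1.15 ± 0.67 SE, adjusted p = 0.404, −1.03 without 110). Within Ct-MetS, Ct-MetS_50 and Ct-MetS_65 had 134 and 225 CPM and the other 4 libraries 643 to 787 CPM. These are the 2 libraries in which Errfi1 was high. Lss and Pmvk, later steps, came to −1.07 ± 0.54 and −0.80 ± 0.46 SE, and both genes were also lowest in those 2 libraries within Ct-MetS.

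Fatty acid synthesis had a median of −0.24, with 3 of 29 genes higher and 1 lower at an unadjusted p under 0.05 (10.3% and 3.45%). The counts were 2 and 1 without MetS-MetS_110 and 0 and 0 against Ct-MetS_65 and Ct-MetS_145. Fasn, the fatty acid synthase, had 90.7, 354, 210.03, 271 and 383 CPM in MetS-MetS, against 173 to 499 CPM (median 399) in Ct-MetS (log2 fold change −0.52 ± 0.65 SE, adjusted p = 0.725, −0.45 without 110). Scd1, the stearoyl-CoA desaturase, had 1943, 1266, 1406, 2193 and 2879.98 CPM, against 1272 to 4209.8 CPM (median 2672) (log2 fold change −0.46 ± 0.67 SE, adjusted p = 0.765, −0.37 without 110). Srebf1, the factor that drives both, had 53.4, 321, 299, 175 and 311 CPM, against 168 to 266 CPM (median 233) (log2 fold change 0.034 ± 0.31 SE, adjusted p = 0.967, −0.074 without 110, 0.24 against Ct-MetS_65 and Ct-MetS_145). Its sign turned without MetS-MetS_110, but also without MetS-MetS_109 (−0.112), MetS-MetS_157 (−0.095), Ct-MetS_145 (−0.039) or Ct-MetS_169 (−0.015). Limma-voom on all libraries gave −0.182. MetS-MetS_39 was the lowest library for Fasn and Srebf1, whereas MetS-MetS_109, MetS-MetS_110 and MetS-MetS_157 lay above every Ct-MetS library for Srebf1 and inside the Ct-MetS range for Fasn. Pnpla3, a lipase of lipid droplets that follows Srebf1, had 0.717, 3.51, 2.97, 2.31 and 3.61 CPM, against 3.75 to 12.1 CPM (median 4.81) (log2 fold change −1.28 ± 0.78 SE, adjusted p = 0.432, −1.33 without 110), without overlap.

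Among 42 imprinted genes, which in at least some tissues are expressed mainly from 1 parental copy, 2 were higher and 7 lower at an unadjusted p under 0.05. These shares, 4.76% and 16.7%, compare with 8.56% and 7.02% of all genes. The counts were 1 and 6 without MetS-MetS_110, and 0 and 1 against Ct-MetS_65 and Ct-MetS_145. Plagl1 (Zac1), the zinc finger factor that the title of the series names, had 7.62, 5.79, 11.01, 7.33 and 9.73 CPM in MetS-MetS, against 7.001 to 13.1 CPM (median 9.94) in Ct-MetS (log2 fold change −0.23 ± 0.22 SE, adjusted p = 0.629, −0.35 without 110). The groups overlapped, with values of each inside the range of the other. H19, a maternally expressed long noncoding RNA, had 246, 287, 299, 287 and 726 CPM, against 378 to 4551 CPM (median 645) (log2 fold change −1.90 ± 0.70 SE, adjusted p = 0.228, −1.84 without 110). Ct-MetS_169 had 4551 CPM. Without it the value was −1.03, and against Ct-MetS_65 and Ct-MetS_145 the value was −0.40.

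Igf2, the fetal growth factor next to H19, had 2.29, 3.89, 15.5, 3.57 and 6.67 CPM in MetS-MetS, against 7.46 to 53.02 CPM (median 8.26) in Ct-MetS (log2 fold change −1.36 ± 0.65 SE, adjusted p = 0.316, −1.98 without 110, −0.40 against Ct-MetS_65 and Ct-MetS_145). Ct-MetS_169 was again far the highest, and without it the value was −0.48. The MetS-MetS library of highest Igf2 was MetS-MetS_110. Cdkn1c, a cell cycle inhibitor, had 9.99, 7.68, 9.16, 10.7 and 7.60 CPM, against 6.57 to 10.9 CPM (median 8.37) (log2 fold change 0.058 ± 0.22 SE, adjusted p = 0.919, 0.053 without 110, 0.36 against Ct-MetS_65 and Ct-MetS_145). Grb10, an adaptor that restrains insulin signalling, came to −0.30 ± 0.14 SE, Sgce to −0.28 ± 0.11 and the ubiquitin ligase gene Ube3a to 0.21 ± 0.073 (adjusted p = 0.212 to 0.299). Dlk1 had a mean of 3.96 counts and was not tested. For Ube3a the value against Ct-MetS_65 and Ct-MetS_145 was 0.091.

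Red cell genes lay higher in MetS-MetS, with 9 of 41 higher at an unadjusted p under 0.05 (22%, against 8.56% of all genes) and none lower. Their summed level was 1752 to 2121 CPM in MetS-MetS and 1365 to 1773 CPM in Ct-MetS. Without MetS-MetS_110, 5 were higher at that p, and 4 against Ct-MetS_65 and Ct-MetS_145. Tmod1, which caps actin filaments, rests on that library, at 7.49 CPM there against at most 0.929 CPM in the other 4. Hba-a2, an alpha globin, had 106, 71.2, 124, 93.01 and 65.9 CPM in MetS-MetS, against 31.3 to 77.9 CPM (median 56.1) in Ct-MetS (log2 fold change 0.75 ± 0.27 SE, adjusted p = 0.222, 0.62 without 110). Hba-a1, its neighbour, had 151, 105, 166, 129.4 and 90.4 CPM, against 42.4 to 109.5 CPM (median 81.9) (log2 fold change 0.69 ± 0.27 SE, adjusted p = 0.244, 0.58 without 110). The beta globin Hbb-bs had 265, 182, 348, 229.97 and 170.04 CPM, against 85.96 to 211 CPM (median 158) (log2 fold change 0.62 ± 0.26 SE, adjusted p = 0.264, 0.45 without 110). Each alpha and each beta globin has a near-identical partner, so the split within a pair is uncertain.

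MetS-MetS_110 was highest for Hba-a2, Hba-a1 and Hbb-bs. Alas2, the first enzyme of haem synthesis in red cells, had 26.03, 27.8, 44.9, 31.3 and 27.99 CPM in MetS-MetS, against 13.1 to 29.3 CPM (median 22.2) in Ct-MetS (log2 fold change 0.48 ± 0.20 SE, adjusted p = 0.262, 0.32 without 110). Slc25a37, which imports iron into mitochondria, came to 0.33 ± 0.13 SE and Bnip3l, which clears mitochondria from maturing red cells, to 0.36 ± 0.12, both also active outside red cells. Set against Ct-MetS_65 and Ct-MetS_145 alone, the values were 0.20 (Slc25a37) and 0.088 (Bnip3l).

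Of the 5 named genes with the smallest p for a difference between the effects of exposure before birth under the 2 kinds of milk, 3 were globins. In control-nursed pups, which are other animals, the same contrast ran the other way, with Hba-a2 at 27.7 to 43.6 CPM in MetS-Ct and 42.4 to 141 CPM in Ct-Ct (log2 fold change −1.16, adjusted p = 0.318). The difference between the 2 effects was 1.91 ± 0.37 SE for Hba-a2, 1.78 ± 0.38 for Hba-a1, 1.78 ± 0.37 for Hbb-bt, 1.64 ± 0.36 for Hbb-bs and 1.22 ± 0.28 for Alas2. None passed edgeR (adjusted p = 0.424 for the globins and 0.507 for Alas2), whose smallest adjusted p for the difference was 0.424 with 787 genes (5.44%) below an unadjusted p of 0.05. DESeq2 called 4 genes for the difference, the globins named here, and 1 without MetS-MetS_110 (Hba-a2). Adgrl3, a neuronal adhesion receptor, and Ntng2, a netrin relative, were the other genes of smallest p, at −0.995 ± 0.22 and 0.86 ± 0.19 SE.

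**Figure D5:**
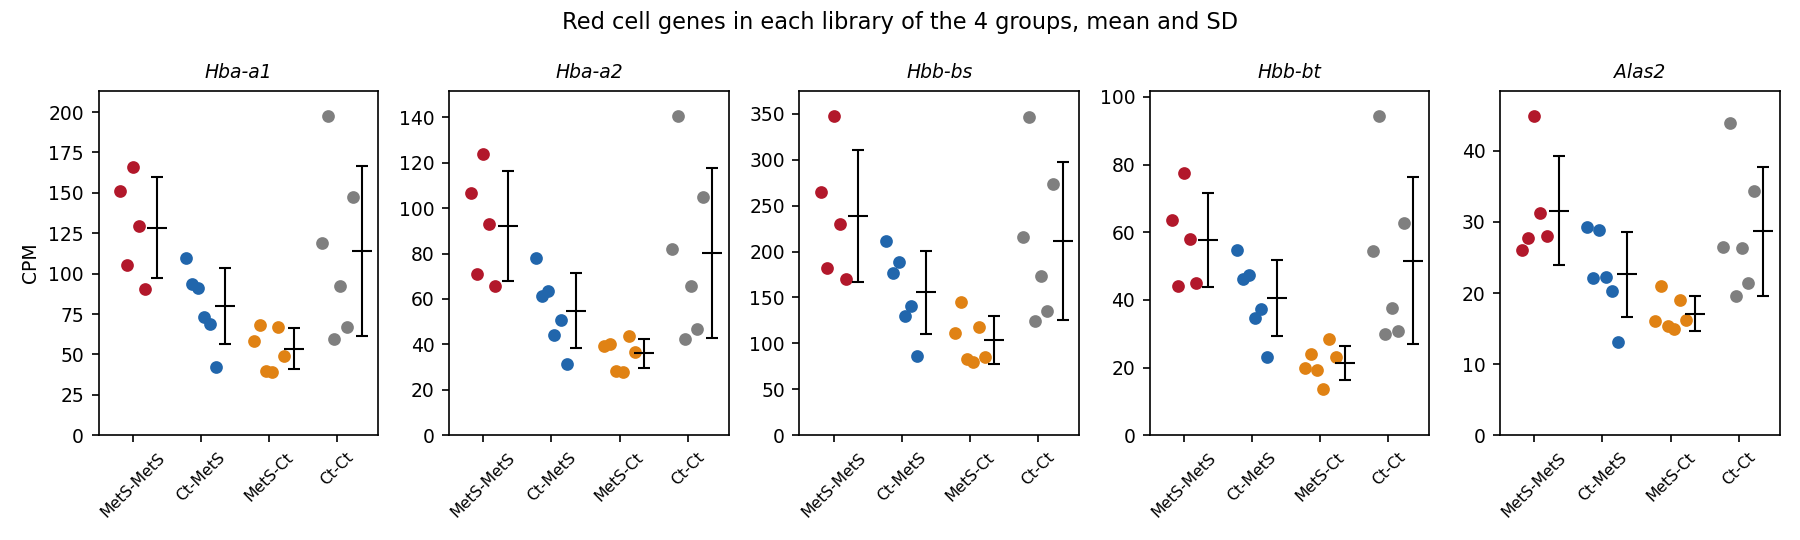
Level of 4 globin genes and Alas2 (y axes, CPM, from 0) in each library of MetS-MetS, Ct-MetS, MetS-Ct and Ct-Ct, with group mean and SD. MetS-MetS lies above Ct-MetS on average while MetS-Ct lies below Ct-Ct on average. The MetS-nursed pair overlaps for every gene shown, and the control-nursed pair for every gene but Hbb-bt.

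Of the immune marker lists none had a gene that was higher at an unadjusted p under 0.05. No lymphocyte marker of 25 had an unadjusted p under 0.05. Kupffer cell and macrophage markers had 2 of 28 lower at that p (7.14%, against 7.02% of all genes), 1 without MetS-MetS_110 and none against Ct-MetS_65 and Ct-MetS_145, and a summed level of 1983 to 2516 CPM in MetS-MetS and 1979 to 2496 CPM in Ct-MetS. The list lay on both sides, with 17 log2 fold changes positive, 11 negative and a median of 0.020. Lyz2, of the same list, was higher without overlap, at 39.2 to 46.6 CPM in MetS-MetS and 30.4 to 38.8 CPM in Ct-MetS. It was 1 such gene of 28, against 1.05% of all genes. Marco, a scavenger receptor of Kupffer cells, had 55.8, 27.7, 17.4, 20.5 and 43.4 CPM, against 30.7 to 70.7 CPM (median 54.7) (log2 fold change −0.64 ± 0.25 SE, adjusted p = 0.237, −0.48 without 110, −0.36 against Ct-MetS_65 and Ct-MetS_145), and Id3, a factor that Kupffer cells need, came to −0.35 ± 0.12 SE. Of 18 monocyte and neutrophil markers the chemokine receptor Cx3cr1 (−0.57) and the granule protease Prtn3 (−0.98) were lower at an unadjusted p under 0.05 (11.1%), and 1 of the 18 against Ct-MetS_65 and Ct-MetS_145. Of 33 interferon-induced genes 3 were lower at that p, Oasl1 (−0.63 ± 0.23 SE), Stat2 (−0.22 ± 0.089) and Isg15 (−0.63 ± 0.30), a share of 9.09%. Without MetS-MetS_110 1 was lower, and 2 against Ct-MetS_65 and Ct-MetS_145. Isg15 had 9.10, 10.1, 9.84, 10.3 and 13.1 CPM, against 9.86 to 29.5 CPM (median 12.7). Set against Ct-MetS_65 and Ct-MetS_145 alone, the values were −0.23 (Id3), −0.26 (Cx3cr1) and −0.12 (Stat2).

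The acute phase, complement and coagulation list had 8 of 43 higher (18.6%) and 2 lower (4.65%) at an unadjusted p under 0.05. With Ct-MetS_65 and Ct-MetS_145 alone on the other side these counts were 0 and 2. Saa4, a constitutive serum amyloid, had 136, 273, 333, 259.9 and 232 CPM in MetS-MetS, against 100.2 to 199 CPM (median 141) in Ct-MetS (log2 fold change 0.78 ± 0.24 SE, adjusted p = 0.189, 0.65 without 110, 0.49 against Ct-MetS_65 and Ct-MetS_145). Il1rn, the antagonist of interleukin 1, had 8.15, 8.58, 7.18, 10.9 and 12.6 CPM, against 2.80 to 19.1 CPM (median 7.95) (log2 fold change 0.014 ± 0.40 SE, adjusted p = 0.989, 0.096 without 110), a value near 0 whose sign turns with the setting. Of 25 endothelial markers 4 were higher (16%) and none lower at an unadjusted p under 0.05. The 4 were Bmp2 (0.46 ± 0.14 SE), by which sinusoids set hepcidin, the lectin Clec4g (0.48 ± 0.18), the water channel Aqp1 (0.34 ± 0.13) and Wnt9b (1.05 ± 0.43), a signal for the pericentral zone. The 4 log2 fold changes were also positive against Ct-MetS_65 and Ct-MetS_145, at 0.48 to 1.83, where 6 of the 25 were higher. Over all 11 libraries the list itself lay on both sides, with 12 markers positive, 13 negative and a median of −0.019. Its summed level was 917 to 1317 CPM in MetS-MetS and 858 to 1333 CPM in Ct-MetS.

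Stat5b, which carries the growth hormone signal in hepatocytes, had 68.6, 80.9, 70.2, 99.8 and 65.8 CPM in MetS-MetS, against 90.3 to 129.9 CPM (median 104) in Ct-MetS (log2 fold change −0.48 ± 0.13 SE, adjusted p = 0.174, −0.45 without 110, −0.30 against Ct-MetS_65 and Ct-MetS_145). MetS-MetS_154 alone lay within the Ct-MetS range. In the respiratory chain, the complex III core subunits Uqcrc1 (0.18 ± 0.066 SE) and Uqcrc2 (0.28 ± 0.093) did not overlap between the groups, on the higher side, and Ndufb8 of complex I lay on the lower side (−0.42 ± 0.14, and −0.060 against Ct-MetS_65 and Ct-MetS_145). Of 32 nuclear genes of the chain 6 were higher and 1 lower at an unadjusted p under 0.05 (18.8% and 3.12%). The counts were 3 and 1 without MetS-MetS_110 and 1 and 0 against Ct-MetS_65 and Ct-MetS_145. Among 36 cell cycle genes the median was −0.37, −0.42 without MetS-MetS_110 and −0.17 against Ct-MetS_65 and Ct-MetS_145. The sole cell cycle gene with an unadjusted p under 0.05 was Ccnd1, cyclin D1, which went against the list at 69.3, 105, 121, 69.04 and 86.99 CPM, against 36.8 to 80.9 CPM (median 48.4) (log2 fold change 0.74 ± 0.33 SE, adjusted p = 0.282, 0.62 without 110). Without MetS-MetS_110, and against Ct-MetS_65 and Ct-MetS_145, no cell cycle gene had such a p. Sox9, a marker of bile duct cells, came to −0.82 ± 0.34 SE. Of 13 such markers tested, 6 had a positive and 7 a negative log2 fold change. At an unadjusted p under 0.05, 2 were lower (15.4%, against 7.02% of all genes) and 0 higher. Without MetS-MetS_110, and against Ct-MetS_65 and Ct-MetS_145, 0 were either. The summed level of the list was 84.1 to 117.9 CPM in MetS-MetS and 92.2 to 111.3 CPM in Ct-MetS. Set against Ct-MetS_65 and Ct-MetS_145 alone, the values were 0.15 (Uqcrc2) and −0.51 (Sox9).

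The contrast of MetS-Ct with Ct-Ct, on the 12 control-nursed animals, shares no library with the one above. EdgeR called 0 of 14466 genes there, 854 (5.9%) had an unadjusted p under 0.05, and DESeq2 called 12. Of the 2255 genes below that p in MetS-nursed pups, 1681 (74.5%) had the same sign in control-nursed pups, against 8951 (61.9%) of all genes tested. The median of mt-Nd6 was lower after a MetS pregnancy here as well. It was 168.5 CPM (109.4 to 248.2) in MetS-Ct and 202.6 CPM (154.9 to 273.2) in Ct-Ct. Whether this library property bears on the shared signs and on the control-nursed medians below was not tested. With mt-Nd6 as a covariate, the MetS-nursed medians were 0.24 for fatty acid oxidation, 0.45 for drug metabolism and 0.63 for the clock. They were 0.35 for amino acid catabolism and −0.25 for the matrix list. The medians that follow are without that covariate. Fatty acid oxidation had medians of 0.33 in MetS-nursed and 0.33 in control-nursed pups. Drug metabolism had 0.50 and 0.30, the clock 0.70 and 0.39, and amino acid catabolism 0.25 and 0.24. The matrix list had −0.32 and 0.069, and 9 of its 42 genes had an unadjusted p under 0.05 for the difference, against 5.44% of all genes. Cyp1a2 had 0.87 and −0.23, with a difference of 1.10 ± 0.27 SE (adjusted p = 0.621), and Plekha1 had −0.50 and −0.46. No gene is called particular to MetS-nursed pups by this test.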

How the data were processed

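Polyadenylated RNA of 23 mouse livers was sequenced in directional libraries, per the labels. The submitters' processing notes name FastQC, STAR, HTSeq and DESeq2. Aligner settings, genome build, annotation and strand use in counting were not given in the sources used here, so overlapping and antisense genes cannot be told apart from their partners. The deposited table holds whole-number counts for 49585 Ensembl genes per library, taken as raw because the values are whole and library totals differ, though the table's name calls them normalised. Symbols matched 49326 of them, and 0 columns lacked a sample.

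Genes averaging 10 counts or more were tested with edgeR 4.0.16 (R 4.3.3) by its quasi-likelihood test (TMM, robust, 1 mean per group, 19 residual degrees of freedom), with Benjamini-Hochberg adjustment over 14466 genes. Only MetS-MetS and Ct-MetS enter the main contrast. The standard error is the log2 fold change divided by the root of its F value, and n is 5 MetS-MetS and 6 Ct-MetS animals unless stated. DESeq2 1.42.0, limma-voom (limma 3.58.1), other scaling, filters, thinning, 2 groups alone, each library left out and mt-Nd6 were alternatives. Depth in these 11 libraries was 16876500 to 34527900 counts. The steps were tested on simulated data with known changes in MetS-MetS. EdgeR called 41.8% of genes changed 1.5-fold and 77.6% of those changed 2-fold, with 7 false calls in all. DESeq2 called 47.8% and 82.1%, with 19 false calls in all.

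The groups, the 40 gene lists and the named genes were chosen with earlier results of these data known. The rule names, where no gene is called, genes of smallest p that average 50 counts or more (8 in each direction, again without MetS-MetS_110), up to 4 of each list by p, 5 for the difference and a fixed set of genes. Predicted genes, pseudogenes, Xist and genes of the Y chromosome were left out. Not every gene so named is reported here.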

Additional observations from a re-analysis of the deposited data

Results flagged for a closer look

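Single libraries were compared with the rest of their group for 248 combinations of a gene or marker sum and a group. In 25 the highest or lowest library lay farther from its neighbour than Dixon's 95% limit allows. Chance alone passes that limit in about 1 in 20, and the number is no test here, since muscle and keratin genes were examined because MetS-MetS_110 was known to carry them. MetS-MetS_110 was such a library for the muscle marker sum (2067 CPM), the keratin marker sum (1127 CPM), Acta1 (358 CPM), Ttn (114 CPM), Myh8 (205 CPM), Krt13 (339 CPM), Krt4 (271 CPM), Des (63.1 CPM), Tmod1 (7.49 CPM) and Alas2 (44.9 CPM). MetS-MetS_39 was the highest of its group for Cyp4a10 (2639.6 CPM) and Bnip3l (113 CPM) and the lowest for Ugp2 (225 CPM). MetS-MetS_109 was highest for Prodh (310.3 CPM), MetS-MetS_154 for Adra2b (6.43 CPM) and MetS-MetS_157 for H19 (726 CPM).

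In Ct-MetS, Ct-MetS_65 was highest for Ciart (10.8 CPM), Cish (26.6 CPM), Fkbp5 (249.9 CPM) and Ugp2 (497 CPM). Ct-MetS_169 was highest for H19 (4551 CPM) and Igf2 (53.02 CPM), Ct-MetS_63 for Pdia6 (432 CPM) and Sdf2l1 (52.4 CPM), and Ct-MetS_24 for Acta1 (1.499 CPM).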

How the results depend on the processing

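With edgeR, 0 genes were called for exposure before birth in MetS-nursed pups under TMM, size factor scaling, both filters, thinning, 2 groups alone and both mt-Nd6 settings, and limma-voom called 0. Leaving out 1 library gave 0 to 31. DESeq2 called 37, and 3 without MetS-MetS_110, where it gave most of the 37 no adjusted p. Genes at an unadjusted p under 0.05 numbered 2255, and 1634 to 2662 with 1 library left out. There were 401 against Ct-MetS_65 and Ct-MetS_145 alone, 959 with the mt-Nd6 covariate and 803 with it and without MetS-MetS_110. In control-nursed pups DESeq2 called 12, and for the difference 4, or 1 without MetS-MetS_110. Of 122 genes followed through the settings, 4 turned sign, each with an adjusted p above 0.05. With 1 library left out, Cdkn1c ranged over −0.012 to 0.133 (also −0.01), Des over −0.493 to 1.442, Il1rn over −0.178 to 0.338 and Srebf1 over −0.112 to 0.288. Des gave −0.493 without MetS-MetS_110, −0.502 without it in 2 groups alone and −0.432 with the covariate too. Il1rn gave −0.009 at a mean of at least 50 counts, −0.423 with the covariate and −0.335 also without MetS-MetS_110. Srebf1 gave −0.182 by limma-voom, −0.075 by DESeq2 and −0.084 in 2 groups alone, both without MetS-MetS_110. The causes were not tested. No paired analysis was possible because animal numbers are not shared between the groups.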
